A study of Mus musculus with 9 samples.

Results

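The genes described here are 10 of the 55401 genes in the deposited count table, chosen by name: the matrix metalloproteinases Mmp2, Mmp3 and Mmp14, the tissue inhibitors of metalloproteinases Timp1, Timp2, Timp3 and Timp4, and the ADAMTS proteases Adamts1, Adamts5 and Adamts9. They were measured by RNA-seq of poly(A) RNA in 9 libraries of primary neonatal mouse ventricular myocytes (NMVMs), isolated from wild-type C57BL/6J pups at day 1 of age and grown in medium with 10% serum. The 3 control libraries came from cultures kept in normal oxygen and complete medium. The 3 hypoxia libraries came from cultures moved to medium without glucose and serum and held in a sealed oxygen-absorbing chamber for 6 h. The 3 hypoxia + rSRGN libraries came from cultures treated in the same way with recombinant serglycin, a secreted proteoglycan, in the medium, at a dose the labels do not give. Low oxygen and the change of medium therefore cannot be told apart in any comparison with control, whereas the 2 hypoxic groups differ, as far as the labels say, in the added protein alone.

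Metalloproteinases cut the proteins of the extracellular matrix at an active site that holds a zinc ion. MMPs are made as inactive precursors, Mmp14 sits in the cell membrane and activates the Mmp2 precursor, and Timp2 takes part in that activation at low levels and blocks it at high levels. ADAMTS proteases are secreted, and Adamts1, Adamts5 and Adamts9 cut large proteoglycans such as versican and aggrecan. TIMPs bind the active sites of these enzymes, and Timp3, which stays bound to the matrix, also inhibits ADAMTS proteases. In the heart much of this machinery is made by fibroblasts, and it takes part in the turnover of matrix after injury.

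Library totals ran from 21669017 to 22781557 counts in control, from 16583985 to 18148474 in hypoxia and from 16640239 to 20826701 in hypoxia + rSRGN. The label of the cells was checked against marker genes. All 14 cardiomyocyte markers were detected, with a summed level of 50165 to 61437 CPM (counts relative to the scaled library total) in control, 4224 to 6580 CPM in hypoxia and 8413 to 9047 CPM in hypoxia + rSRGN. Fibroblast markers were present in the same libraries, with a summed level of 9080 to 10686 CPM in control. Most of that sum came from the collagen genes Col1a1, Col1a2 and Col3a1, named after their values were seen. In bulk RNA, fewer cells of a type and less RNA per cell cannot be told apart. Of the 6 neutrophil markers, Ly6g, Mpo and Retnlg were at 0 in all 9 libraries, and the summed level of the list was at most 0.494 CPM. Nothing in the labels says that replicates came from separate cultures or animals, so p-values measure the spread between these samples, which may be technical.

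To show the sequence before the start of genes that moved in different directions, 250 bases of promoter are printed for 4 members, taken from RefSeq (GRCm38.p6), where 8 of the 10 members were matched (not Mmp2 and Adamts5). Each runs 5′ to 3′ in the direction of the gene and ends at the base before the RefSeq transcription start, which for Mmp14 and Adamts9 lies upstream of the gene start in the count table. For Timp2 and Timp3, not printed, the RefSeq start lies inside the gene of the count table, so the Timp2 window lies wholly and the Timp3 window partly within that gene. Mmp3, Mmp14 and Timp1 were higher in hypoxia than in control, and Adamts9 was the one tested member called lower. Capitals mark exact matches on either strand to 4 motifs: TGANTCA (AP-1), ACGTG (the core of the hypoxia response element), GGGCGG (Sp1) and TATAAA (the box common near start sites). A match is a description of letters and does not show that a factor binds.
Mmp3, chr9:7445572-7445821, plus strand: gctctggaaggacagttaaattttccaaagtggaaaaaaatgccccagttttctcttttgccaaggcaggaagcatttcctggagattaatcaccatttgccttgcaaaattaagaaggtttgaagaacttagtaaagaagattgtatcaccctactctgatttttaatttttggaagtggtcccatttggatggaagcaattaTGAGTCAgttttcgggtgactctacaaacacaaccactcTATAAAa
Mmp14, chr14:54431348-54431597, plus strand: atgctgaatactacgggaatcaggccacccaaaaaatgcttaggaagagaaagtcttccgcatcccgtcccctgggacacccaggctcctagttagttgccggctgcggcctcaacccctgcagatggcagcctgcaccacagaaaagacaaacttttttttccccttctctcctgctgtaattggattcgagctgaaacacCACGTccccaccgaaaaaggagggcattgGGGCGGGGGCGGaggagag
Timp1, chrX:20869916-20870165, plus strand: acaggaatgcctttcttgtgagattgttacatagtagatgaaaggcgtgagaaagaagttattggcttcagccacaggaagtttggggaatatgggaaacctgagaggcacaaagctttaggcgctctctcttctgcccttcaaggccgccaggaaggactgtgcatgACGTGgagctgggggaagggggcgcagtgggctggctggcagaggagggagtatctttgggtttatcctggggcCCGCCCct
Adamts9, chr6:92943535-92943784, minus strand: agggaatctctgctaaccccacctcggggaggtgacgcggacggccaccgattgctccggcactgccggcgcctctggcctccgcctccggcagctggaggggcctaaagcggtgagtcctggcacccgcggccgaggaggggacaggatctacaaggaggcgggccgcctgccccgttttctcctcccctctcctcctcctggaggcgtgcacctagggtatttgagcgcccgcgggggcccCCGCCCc

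Among the 8 matched members, TGANTCA was found in Mmp3 alone, 46 bases before the start, and it occurs in 6.75% of 32851 promoters of this length. ACGTG was found in Mmp14 and Timp1 and occurs in 16.6% of promoters. GGGCGG was found in 6 members, Mmp14, Timp1, Timp2, Timp3, Adamts1 and Adamts9, and occurs in 32.7% of promoters. TATAAA was found in Mmp3 and Adamts1 and occurs in 12.4%. The Timp4 window held none of the 4 motifs, which says only that these letters are not in it.

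All positions below are on GRCm38. Mmp2 (ENSMUSG00000031740.8) runs from 92827291 to 92853420 on chromosome 8 (plus strand), Mmp3 (ENSMUSG00000043613.8) from 7445822 to 7455975 on chromosome 9 (plus strand), and Mmp14 (ENSMUSG00000000957.11) from 54431612 to 54445364 on chromosome 14 (plus strand). Timp1 (ENSMUSG00000001131.11) runs from 20870166 to 20874735 on chromosome X (plus strand), inside an intron of Syn1 on the opposite strand, with 0 exonic bases in common. Timp2 (ENSMUSG00000017466.9) runs from 118301069 to 118355740 on chromosome 11 (minus strand). Timp3 (ENSMUSG00000020044.13) runs from 86300372 to 86349506 on chromosome 10 (plus strand), inside Syn3, with which it shares 1733 exonic bases on opposite strands (21.3% of its exonic length). Timp4 (ENSMUSG00000030317.8) runs from 115241892 to 115252205 on chromosome 6 (minus strand), inside Syn2, and shares 90 exonic bases with it. In all, 3 of the 4 TIMP genes are therefore nested within a synapsin gene.

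Adamts1 (ENSMUSG00000022893.14) runs from 85793827 to 85803113 on chromosome 16 (minus strand), and Adamts5 (ENSMUSG00000022894.6) from 85856173 to 85901828 on the same strand, a gap of 53059 bases with 1 other gene in it. Adamts9 (ENSMUSG00000030022.14) runs from 92772699 to 92943492 on chromosome 6 (minus strand) and shares 1381 exonic bases with A730049H05Rik and 424 with Gm15737, both on the opposite strand. No strand option is named for the counting, so reads in shared bases cannot be assigned to one strand. Syn3 had 29 to 49 counts per group of 3 libraries, A730049H05Rik 14 to 22 and Gm15737 6 to 39, against 1856 counts or more for Timp3 and Adamts9. For Timp4 the order was the other way, with 389, 56 and 70 counts for Syn2 in control, hypoxia and hypoxia + rSRGN, against 7, 5 and 3 for Timp4.

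**Figure D1:**
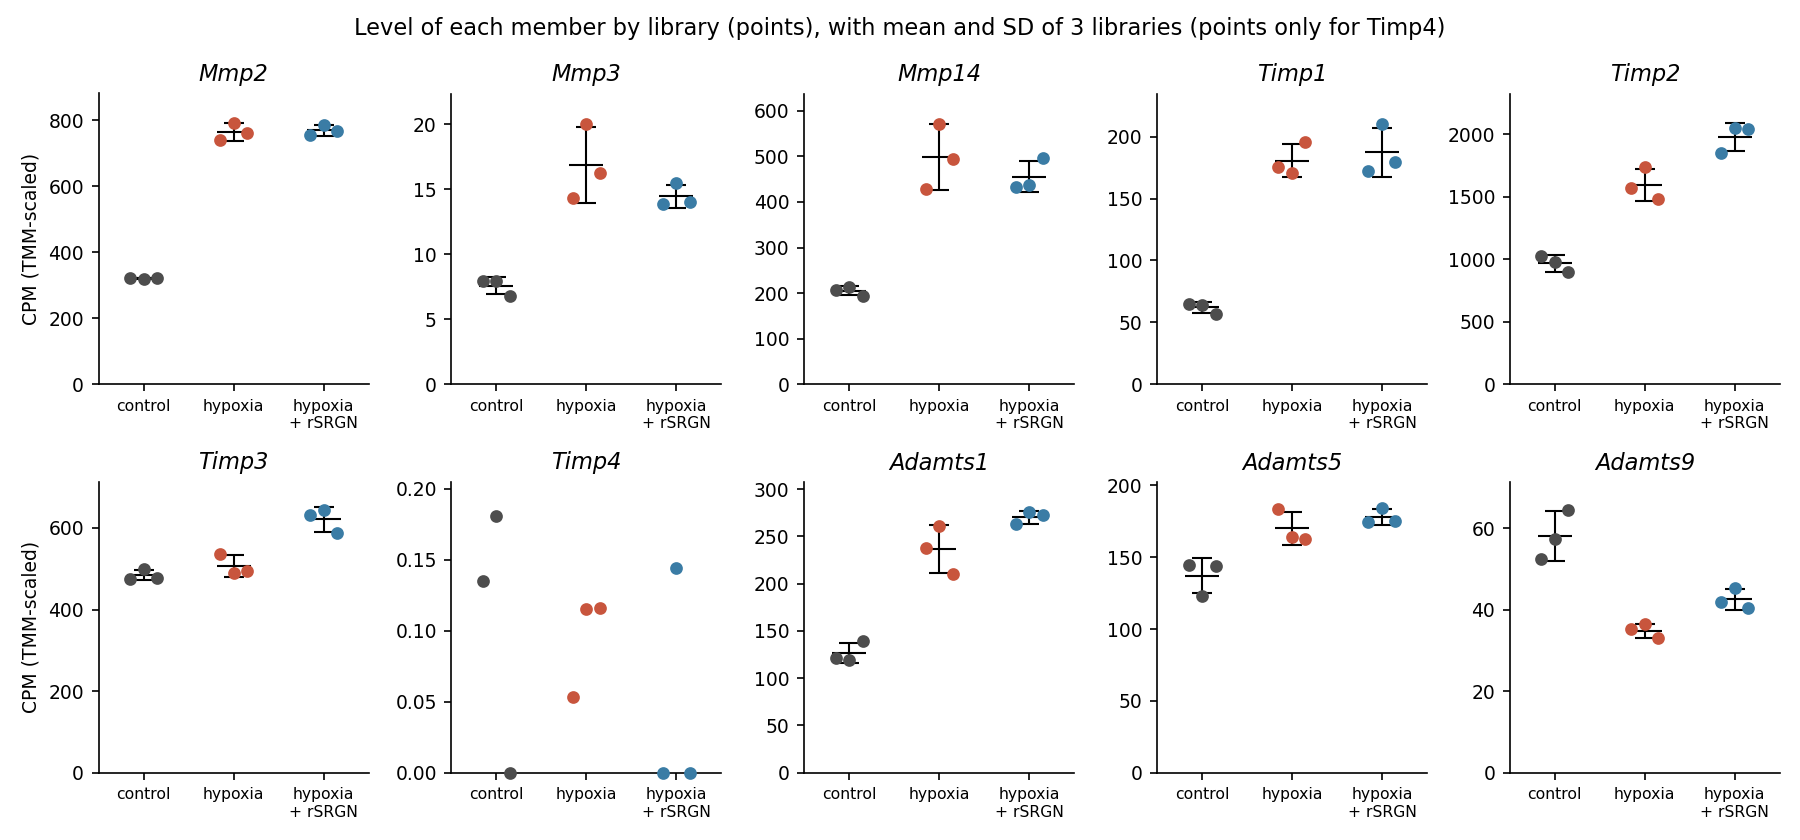
Level of the 10 members in each library, in CPM scaled by TMM (vertical axes start at 0 and differ between panels), by group. Points are libraries and bars are the mean and SD of 3 libraries (points only for Timp4). For Mmp2, Mmp3, Mmp14, Timp1, Timp2, Adamts1 and Adamts5 every hypoxic library lies above every control library, and for Adamts9 every hypoxic library lies below. Over all genes tested, ranges are apart from control for 73% in hypoxia and 73.3% in hypoxia + rSRGN.

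The first comparison, hypoxia against control, addresses how cultures answered to low oxygen together with withdrawal of glucose and serum. Of the 9 members that could be tested, 6 were higher and 1 was lower, where a call needed both an adjusted p under 0.05 and a change of 1.5-fold or more. Over all 16762 genes tested, 51.6% were called in this comparison, 26.4% higher and 25.1% lower. The median log2 fold change was 0.90 over the 9 members and 0.05 over all genes. The proteases Mmp2, Mmp3, Mmp14 and Adamts1 and the inhibitors Timp1 and Timp2 rose, Adamts9 fell, and Timp3 and Adamts5 were not called.

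Mmp2, the gelatinase that cuts denatured collagen and basement membrane collagen, had 324, 319 and 321 CPM in the control libraries. In hypoxia it had 740.0, 793 and 762 CPM, so no hypoxia library came near the control libraries. The change was 2.38-fold (log2 1.25, SE 0.07, adjusted p = 2.33e-13). Mmp14, the membrane-type protease that activates the Mmp2 precursor, had 206, 214 and 194 CPM in control and 429, 572 and 495 CPM in hypoxia. Its hypoxia libraries were spread (SD 71.5 CPM around a mean of 499, a coefficient of variation of 14.3%, against 3.46% for Mmp2), and all lay above control. The change was 2.43-fold (log2 1.28, SE 0.09, adjusted p = 2.11e-11).

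Mmp3, or stromelysin-1, which cuts many matrix proteins and activates other MMP precursors, had 7.95, 7.95 and 6.81 CPM in control, which are 177, 176 and 141 counts. In hypoxia it had 14.3, 20.1 and 16.2 CPM, higher in all 3 libraries, and the change was 2.22-fold (log2 1.15, SE 0.14, adjusted p = 1.09e-07). Among the tested members it had the fewest counts and the largest standard error.

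Timp1, a soluble inhibitor of most secreted MMPs that is a weak inhibitor of Mmp14, had the largest change of the members. It had 64.8, 64.3 and 57.0 CPM in control and 175, 170.5 and 196 CPM in hypoxia. The groups were far apart, and the change was 2.91-fold (log2 1.54, SE 0.09, adjusted p = 4.04e-13). Timp2 had 1027, 975 and 896 CPM in control and 1569.5, 1736 and 1480.2 CPM in hypoxia. It was the most abundant member in every library, and its change was 1.65-fold (log2 0.72, SE 0.08, adjusted p = 4.60e-08).

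The other 2 inhibitors gave no call. Timp3, the matrix-bound TIMP, had 475, 499 and 479 CPM in control and 537, 489 and 495 CPM in hypoxia, and these ranges overlap. Its log2 difference was 0.07 (95% interval -0.08 to 0.21, adjusted p = 0.409), an interval that leaves out a 1.5-fold change in either direction. Timp4, known as a TIMP enriched in the heart, was nearly undetected. It had 3, 4 and 0 counts in control, 1, 2 and 2 in hypoxia and 0, 3 and 0 in hypoxia + rSRGN, and did not enter the fit. For Timp4 the ratio of hypoxia to control, per TMM-scaled library total, was 0.874 with an exact 95% counting interval of 0.219 to 3.20. A difference was therefore not detectable at this depth. That interval covers counting error only.

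The ADAMTS proteases moved apart from each other. Adamts1, which cuts versican and aggrecan, had 121, 119 and 139 CPM in control and 238, 261 and 210.4 CPM in hypoxia, with no overlap, and rose 1.87-fold (log2 0.90, SE 0.08, adjusted p = 1.79e-09). Adamts5, a main aggrecanase of cartilage, had 145, 123 and 144 CPM in control and 184, 164 and 163 CPM in hypoxia. Its ranges were apart and its adjusted p was 0.00115, but the difference was 1.24-fold (log2 0.31, SE 0.08) and below the fold limit. Adamts9, which cuts versican, had 52.3, 57.3 and 64.5 CPM in control and 35.2, 36.5 and 33.0 CPM in hypoxia. It was 1.66-fold lower (log2 -0.73, SE 0.09, adjusted p = 2.61e-07), and all its hypoxia libraries lay below all its control libraries. Without regard to fold, 8 of the 9 members passed the adjusted p in this comparison, against 70.9% of all genes, and the ranges of 8 were apart, against 73% of all genes.

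**Figure D2:**
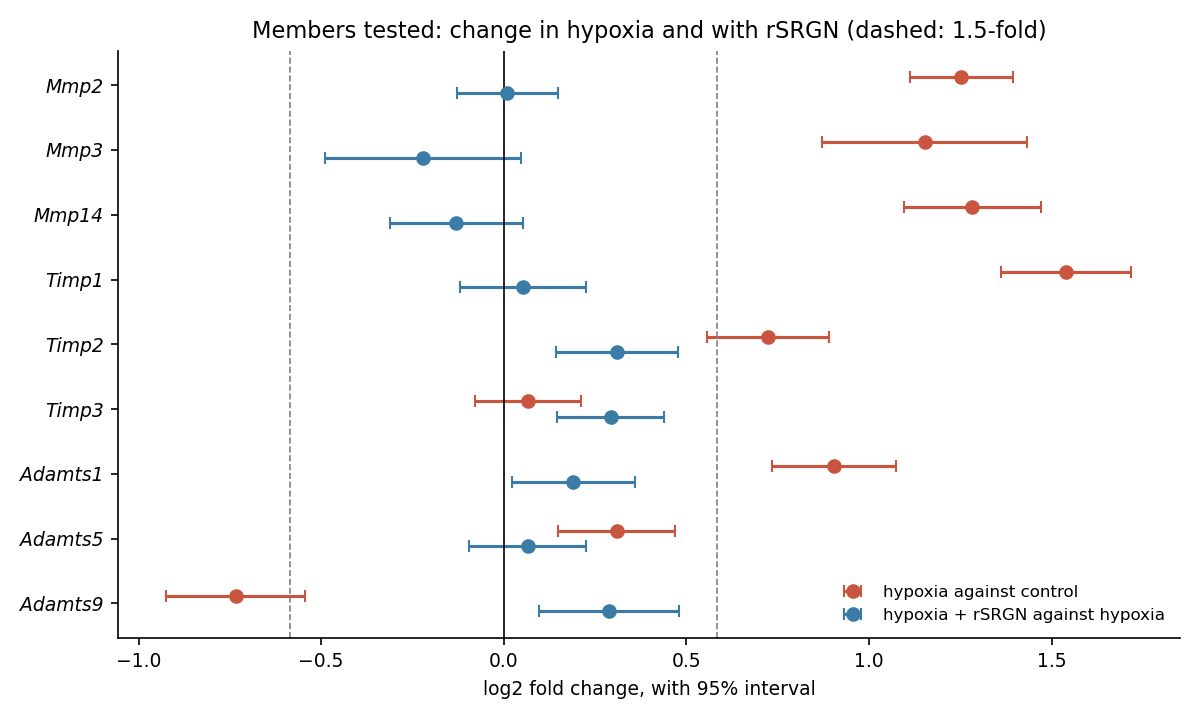
Log2 fold change of the 9 tested members (horizontal axis) with its 95% interval, for hypoxia against control (red) and hypoxia + rSRGN against hypoxia (blue); dashed lines mark a 1.5-fold change. In the second comparison all 9 intervals lie between the dashed lines, from -0.49 for Mmp3 to 0.48 for Timp2 and Adamts9.

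The second comparison, hypoxia + rSRGN against hypoxia, asks what the added serglycin changed. None of the 9 tested members was called by edgeR (0 of 9), and DESeq2 called 0 as well, while 3.13% of all genes were called, 2.27% higher and 0.859% lower. The 95% intervals of all 9 members lay within 1.5-fold in either direction. At an adjusted p below 0.05 without a fold limit there were 3 members (Timp2, Timp3 and Adamts9), against 16.6% of all genes, and at an unadjusted p below 0.05 there were 4, with Adamts1 added. The same 4 members had ranges that did not overlap, against 32% of all genes.

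Timp2 had 1846, 2047 and 2041 CPM with rSRGN, above each of the 3 hypoxia libraries, a log2 difference of 0.31 (SE 0.08, adjusted p = 0.0107). Timp3 had 632, 644 and 587 CPM, again above every hypoxia library, with a log2 difference of 0.29 (SE 0.07, adjusted p = 0.00661). Both inhibitors were thus 1.24-fold and 1.22-fold above hypoxia, less than the fold limit. Adamts9 had 41.9, 45.4 and 40.4 CPM, between the hypoxia and control libraries, with a log2 difference of 0.29 from hypoxia (SE 0.09, adjusted p = 0.0364). Adamts1 had 263, 275 and 272 CPM, just above its highest hypoxia library, with a log2 difference of 0.19 (SE 0.08, adjusted p = 0.115).

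For the MMPs and the remaining members the values with and without rSRGN overlapped. Mmp2 had 755, 786 and 769 CPM with rSRGN, a log2 difference of 0.01 (95% interval -0.13 to 0.15, adjusted p = 0.949). Mmp14 had 434, 438 and 496 CPM, a difference of -0.13 (95% interval -0.31 to 0.05, adjusted p = 0.353). Mmp3 had 13.9 to 15.5 CPM in the 3 libraries, a difference of -0.22 (95% interval -0.49 to 0.05, adjusted p = 0.271). Timp1 had 172, 209.8 and 180 CPM, with 1 library above and the other 2 within the hypoxia range, a difference of 0.05 (95% interval -0.12 to 0.23, adjusted p = 0.726). Adamts5 had 175, 184 and 175 CPM, a difference of 0.07 (95% interval -0.09 to 0.22, adjusted p = 0.623).

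In hypoxia + rSRGN against control, 6 members were called higher and 0 lower, against 48.8% of all genes called, 24.1% higher and 24.7% lower. This comparison shares its control libraries with the first and its treated libraries with the second. The 6 were Timp1 (log2 1.59, SE 0.09), Mmp2 (1.26, SE 0.07), Mmp14 (1.15, SE 0.09), Adamts1 (1.10, SE 0.08), Timp2 (1.03, SE 0.08) and Mmp3 (0.93, SE 0.14). Adamts9, which fell 1.66-fold in hypoxia, had a log2 difference from control of -0.45 (SE 0.09, adjusted p = 0.000155) and was not called. Timp3 (0.36, SE 0.07) and Adamts5 (0.38, SE 0.08) also stayed below the fold limit. All 9 passed the adjusted p, against 68.6% of all genes, and all 9 had ranges apart from control, against 73.3% of all genes.

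The levels of different genes were compared per kilobase of exonic length. This length counts all annotated exons of a gene, whether or not they are in the transcripts present, and the order depends on it. In control, Timp2 was the most abundant at 248 CPM per kilobase (SD 16.9, n = 3), followed by Mmp2 at 95.2, Timp1 at 69.9, Timp3 at 59.5, Mmp14 at 34.4, Adamts1 at 23.9, Adamts5 at 12.7, Mmp3 at 4.20 and Adamts9 at 3.86 CPM per kilobase. Mmp3 and Adamts9 overlapped in control, and each other neighbouring pair in the order had separate ranges. In hypoxia Mmp14 stood at 83.7 CPM per kilobase and Timp3 at 62.3, so their order was exchanged, and Timp1 (203) overlapped with Mmp2 (227). Without division by length, the mean of Mmp14 in hypoxia (499 CPM) did not pass that of Timp3 (507 CPM). With rSRGN, Mmp14 (76.5) and Timp3 (76.3) overlapped.

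The make-up of each family can be read within a library, where scaling between libraries plays no part. Timp1 made up 18.2 to 18.9% of the summed TIMP level per kilobase in control, 27.5 to 33.3% in hypoxia and 25.3 to 28.1% in hypoxia + rSRGN. Timp3 made up 14.8 to 16.6% in control, 8.60 to 9.90% in hypoxia and 9.03 to 10.4% in hypoxia + rSRGN. The lower share of Timp3 is relative to the other TIMPs, since its own level was 59.5 CPM per kilobase in control, 62.3 in hypoxia and 76.3 in hypoxia + rSRGN. Among the 3 MMPs, the Mmp2 share overlapped between control (70.1 to 72.3%) and hypoxia (68.7 to 73.3%), with 71.5 to 74.0% in hypoxia + rSRGN. The Mmp3 share was 2.88 to 3.27% in control, 2.66 to 3.25% in hypoxia and 2.44 to 2.72% in hypoxia + rSRGN, where it did not overlap with control. Among the 3 ADAMTS members, Adamts1 went from 57.5 to 59.8% in control to 69.7 to 73.7% in hypoxia. Adamts9 went from 8.75 to 10.1% in control to 3.62 to 3.85% in hypoxia and 3.82 to 4.19% in hypoxia + rSRGN.

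Inhibitors and proteases were set against each other in the same way. The sum of the 4 TIMPs over the sum of the 3 MMPs, each per kilobase, was 2.93, 2.85 and 2.68 in the control libraries, 2.22, 2.04 and 2.08 in hypoxia, and 2.45, 2.67 and 2.50 in hypoxia + rSRGN. The 3 groups did not overlap, and the hypoxia libraries were lowest. Timp2 over Mmp2 was 2.42 to 2.75 in control, 1.68 to 1.89 in hypoxia and 2.12 to 2.30 in hypoxia + rSRGN, again without overlap. Mmp14 over Timp2, the pair that acts on the Mmp2 precursor, was 0.131 to 0.143 in control, 0.179 to 0.219 in hypoxia and 0.140 to 0.159 in hypoxia + rSRGN, where control and hypoxia + rSRGN overlapped. These ratios are of RNA levels and are given as a description without a test.

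**Figure D3:**
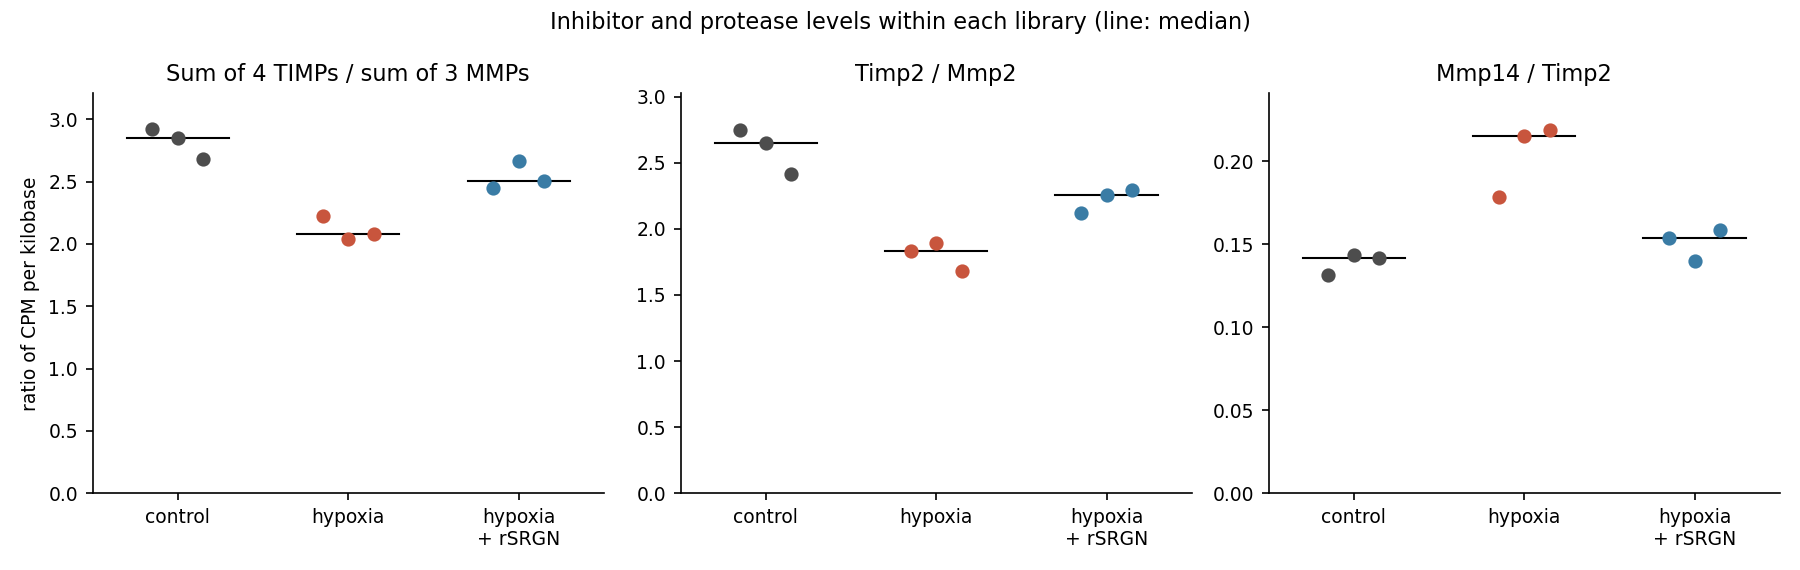
Ratios of levels (CPM per kilobase) within each library, by group: the sum of 4 TIMPs over 3 MMPs, Timp2 over Mmp2, and Mmp14 over Timp2 (vertical axes start at 0 and differ). Points are libraries and lines are medians; the TIMP over MMP ratio runs from 2.68 to 2.93 in control, 2.04 to 2.22 in hypoxia and 2.45 to 2.67 in hypoxia + rSRGN.

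The rest of the MMP family did not share one direction. The counts of this and the following lists are to be read beside the 51.6% of all genes called in hypoxia against control and the 3.13% called with rSRGN. Of 20 other MMPs, 12 could be tested, and 5 were higher and 2 lower in hypoxia (median log2 difference 0.66; 4 were called in all when at least 10 counts were required in every library). Mmp15, a membrane-type MMP related to Mmp14, fell 21.9-fold, from 128 CPM (SD 8.26, n = 3) to 5.82 CPM (SD 2.34, n = 3; log2 -4.45, SE 0.16, adjusted p = 2.84e-16). Mmp12, the macrophage elastase, fell 15.9-fold, from 13.8 to 0.859 CPM (log2 -3.99, SE 0.27, adjusted p = 1.52e-11). Mmp25, a membrane-anchored MMP known from leukocytes, had 1 count over the 3 control libraries and 185 over the 3 hypoxia libraries. The ratio was 226 per TMM-scaled library total, with an exact 95% counting interval of 40.1 to 8991, which covers counting error only. Mmp25 passed the filter on low counts only through the hypoxic groups. Mmp15 was the one gene of this list called with rSRGN (log2 0.72, SE 0.18, adjusted p = 0.00893), and without hypoxia replicate 3 its difference was 0.44 and was not called.

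Of 16 other ADAMTS proteases, 13 were tested, and 4 were higher and 6 lower in hypoxia, with a median of -0.41. Adamts15, which cuts versican, fell 12.2-fold, from 17.9 to 1.46 CPM (log2 -3.60, SE 0.20, adjusted p = 4.99e-13). Adamts19 fell 7.65-fold (log2 -2.94, SE 0.26) and Adamts17 fell 5.87-fold (log2 -2.55, SE 0.40). With rSRGN, Adamts12 rose 1.63-fold over hypoxia, from 43.1 to 70.1 CPM (log2 0.70, SE 0.08, adjusted p = 3.85e-05). Adamts20, a protease of pigment cell development, was lower with rSRGN (log2 -0.87, SE 0.28, adjusted p = 0.0341), on 185 and 107 counts. Its call was lost without hypoxia replicate 1 (-0.87) or 3 (-0.75) and without hypoxia + rSRGN replicate 1 (-0.79) or 2 (-0.73).

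The 7 ADAMTS-like proteins, which lack the protease domain, gave 3 higher and 2 lower in hypoxia, and 0 called with rSRGN by edgeR or DESeq2 (1 at an unadjusted p with the same fold limit, and 1 without hypoxia replicate 1). Adamtsl1 fell 6.33-fold and Thsd4 fell 2.74-fold, while Adamtsl5 rose 2.15-fold (log2 -2.66, SE 0.24, then -1.45, SE 0.13, then 1.10, SE 0.08). Of 10 ADAM proteases and their relatives in the cell membrane, 2 were higher and 2 lower in hypoxia, and 0 were called with rSRGN by edgeR or DESeq2 (0 at an unadjusted p with the same fold limit, and 1 without hypoxia replicate 2). Adam33 rose 3.02-fold (log2 1.60, SE 0.11), Adam8 fell 3.44-fold (log2 -1.78, SE 0.23) and Adam22, which has no protease activity, fell 2.79-fold (log2 -1.48, SE 0.24).

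Genes that activate, anchor or restrain these proteases were mostly called higher. Of 19 listed, 16 were tested, and 13 were higher and 2 lower in hypoxia, with a median of 0.92, beside 26.4% higher, 25.1% lower and a median of 0.05 over all genes. Plaur, the receptor that holds urokinase at the cell surface, rose 4.50-fold, from 13.8 to 62.0 CPM (log2 2.17, SE 0.11, adjusted p = 8.32e-14). Pcolce2, an enhancer of procollagen processing, rose 2.65-fold (log2 1.40, SE 0.13). Spock2, a testican of the extracellular matrix, fell 6.81-fold, from 21.9 to 3.21 CPM (log2 -2.77, SE 0.16). Spock2 was also the one gene of the list called with rSRGN (log2 0.62, SE 0.18, adjusted p = 0.0242). The list had 3 calls without hypoxia replicate 2 and 2 without hypoxia + rSRGN replicate 3. The call of Spock2 was lost in a fit of the 2 hypoxic groups alone (0.63), without hypoxia replicate 3 (0.53) and without hypoxia + rSRGN replicate 1 (0.58) or 2 (0.50).

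Of 16 genes for matrix substrates, 15 were tested, and 9 were higher and 3 lower in hypoxia, with a median of 0.66. Of the 4 large proteoglycans on the list, 2 were called: Vcan (versican) fell 4.73-fold, from 443 to 93.7 CPM (log2 -2.24, SE 0.09, adjusted p = 1.02e-15), and Acan (aggrecan) fell 3.57-fold from 39.3 CPM (log2 -1.84, SE 0.19). Ncan (neurocan) was not called (log2 -0.60), and Bcan (brevican) was not tested, at 14 counts over the control libraries and 14 over the hypoxia libraries; both are named after their values were seen. Bgn (biglycan), a small proteoglycan, rose 3.25-fold, from 2007 to 6533 CPM (log2 1.70, SE 0.07). With rSRGN, 3 substrates rose over hypoxia and 0 fell. Acan rose 2.06-fold (log2 1.04, SE 0.20, adjusted p = 0.00115) and Vcan rose 1.67-fold (log2 0.74, SE 0.09, adjusted p = 3.85e-05). Lama2, a laminin chain of muscle basement membrane, rose 1.62-fold (log2 0.69, SE 0.09, adjusted p = 6.71e-05). Lama2 had 124, 134 and 156 CPM in control, and 50.2, 48.7 and 41.8 CPM in hypoxia. With rSRGN it had 80.3, 77.4 and 70.3 CPM. All 3 genes with rSRGN still lay below every one of their control libraries.

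**Figure D4:**
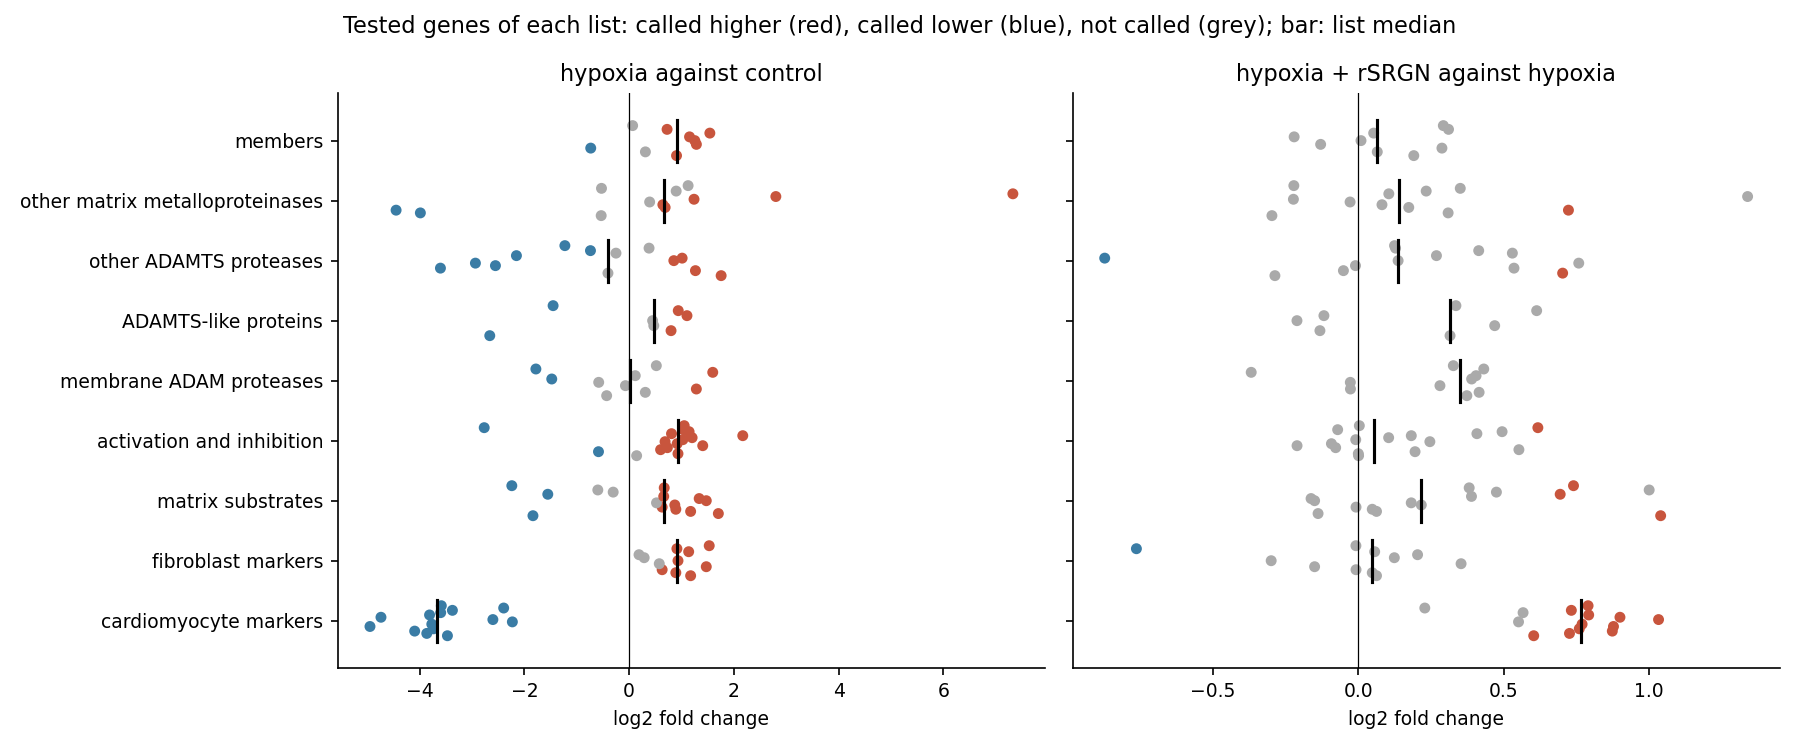
Log2 fold change of each tested gene in the members, the related lists and the fibroblast and cardiomyocyte markers, for hypoxia against control (left) and hypoxia + rSRGN against hypoxia (right; the axes differ). Red points are genes called higher, blue points genes called lower, grey points genes not called, and bars are list medians; the median of the members is 0.90 on the left and 0.07 on the right.

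Marker genes of several cell types moved with the same comparison. In hypoxia, 8 of 11 fibroblast markers were higher and 0 lower, with a median log2 fold change of 0.91, beside 0.90 for the members. Their summed level was 18051 to 20809 CPM in hypoxia and 19852 to 20473 CPM in hypoxia + rSRGN, and 4 of these markers are also among the matrix substrates. All 14 cardiomyocyte markers were lower in hypoxia, with a median of -3.67. With rSRGN, 11 of the 14 were higher than in hypoxia (6 without hypoxia replicate 3), and 1 of 11 fibroblast markers was lower. In the same comparison 1 of 9 endothelial markers was higher, and 0 of 9 macrophage markers were called. Of 7 smooth muscle and pericyte markers 1 was higher (0 without hypoxia replicate 3 or without hypoxia + rSRGN replicate 2). Of the 9 endothelial markers, 6 were lower in hypoxia and 0 higher, with a summed level of 80.4 to 110 CPM in control and 58.1 to 74.2 CPM in hypoxia. Vwf, named after its values were seen, had at most 12 counts in any hypoxic library and passed the filter on low counts only through control. Of the 7 smooth muscle and pericyte markers, 2 were higher and 1 lower, with a median log2 fold change of -0.28 and a summed level of 1715 to 2024 CPM in control and 2400.2 to 2713 CPM in hypoxia, most of it from Acta2, named after its values were seen and not called (1386 CPM in control and 2027 CPM in hypoxia).

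Of the 9 macrophage markers, 8 were lower and 1 higher in hypoxia, and 3 were called in all when at least 10 counts were required in every library. Of the 8, Adgre1, C1qa, C1qb, C1qc and Mrc1, named after their values were seen, had at most 12 counts in any hypoxic library. They passed the filter on low counts only through control. The 8 summed to 229 to 245 CPM in control, 24.5 to 26.9 CPM in hypoxia and 28.6 to 34.7 CPM in hypoxia + rSRGN. The exception, named after its values were seen, was Cx3cr1, the fractalkine receptor, which had 3, 1 and 14 counts in the control libraries and 2584, 1417 and 2099 in hypoxia. It passed the filter on low counts only through the hypoxic groups. The part of these marker genes in the changes of the members was not tested.

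For each tested member the gene with the most similar profile over the 9 libraries was sought among 14257 genes, by the root mean square difference of log2 CPM after each gene was centred on its own mean. The nearest gene was Cd34 for Mmp2 (difference 0.042), Tulp4 for Timp3 (0.040), Prkar2b for Adamts1 (0.046), Enpp1 for Timp2 (0.053), F2rl1 for Adamts5 (0.054), Lhfp for Mmp3 (0.066), Osbpl6 for Adamts9 (0.066), Gm13456 for Mmp14 (0.070) and Ptgs1 for Timp1 (0.071). No member was the nearest gene of another. Gm13456 is annotated as a processed pseudogene, whose reads may be shared with a near-identical copy, so its level is uncertain.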

How the data were processed

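RNA-seq libraries of NMVMs in 3 groups (control, hypoxia, hypoxia + rSRGN; n = 3 each) were grouped by their labels. The authors deposited whole-number counts per gene without normalization, made with featureCounts 2.0.1 on exons of the mouse GENCODE release M25. The submitters' processing notes name HISAT2 and mm10. All 9 columns of counts were used and 0 were left out. Exonic lengths and positions came from the same table, and promoters from RefSeq.

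Differential expression was tested with edgeR 4.0.16 in R 4.3.3 (filterByExpr, TMM, 1 mean per group over all 9 libraries, quasi-likelihood test, Benjamini-Hochberg adjustment over 16762 genes). The step was also run on simulated data with far fewer changed genes than were called here. That run therefore does not cover changes as broad as those against control. Calls needed an adjusted p under 0.05 and a 1.5-fold change. CPM are counts relative to TMM-scaled library totals, with a prior count of 0.5 for log2 profiles. Named genes are the members, up to 3 called genes per list and comparison with the largest change and a mean of at least 1 CPM, and the nearest profile of each member. The members and lists were chosen with earlier results of these data known. Alternatives were DESeq2 1.42.0, RLE scaling, library size alone, other filters, a fit of only the groups compared, a replicate block, no adjustment, no fold limit and leaving out each library. Figures were drawn with matplotlib 3.10.9.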

Additional observations from a re-analysis of the deposited data

How the results depend on the processing

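The counts of members called were 7 for hypoxia and 6 for hypoxia + rSRGN, each against control, and 0 between the hypoxic groups. These were the same under DESeq2, RLE scaling, library size alone, the other filters, fits limited to the compared groups, the unadjusted p and each library left out. Without a fold limit they were 8, 9 and 3. Of 486 values of single members under other settings, 475 kept their direction and call, and 7 passed only without a fold limit. The 4 that changed sign were small differences in hypoxia + rSRGN against hypoxia. Mmp2 was at -0.012 by library size alone and ranged from -0.013 (without hypoxia replicate 1) to 0.037 with 1 library left out, and was at -0.0040 without hypoxia + rSRGN replicate 2. Timp1 ranged from -0.035 (without hypoxia + rSRGN replicate 2) to 0.117. In the same comparison, with 1 library left out, Mmp14 ranged from -0.23 to -0.018, Mmp3 from -0.33 to -0.076 and Adamts1 from 0.11 to 0.27, none of them called.

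Over all genes, hypoxia + rSRGN against hypoxia gave 525 calls, 899 at the unadjusted p, 2790 without a fold limit, and 321 (without hypoxia replicate 3) to 699 with 1 library left out. Scaling by library size alone put the median of all genes at 0.122 in hypoxia against control, beside 0.054 with TMM. The same alternatives were run on the related and marker lists after the data were seen. Deviations of libraries with the same replicate number correlated at -0.073 to 0.073. Libraries with different numbers were not set beside these values, so whether the numbers pair the samples was not tested. With the replicate block, 8550 genes were called in hypoxia against control (8644 without), 495 in hypoxia + rSRGN against hypoxia (525 without) and 8096 in hypoxia + rSRGN against control (8183 without), and the counts of members called stayed at 7, 0 and 6. At this depth Timp4, with at most 7 counts per group, could not be compared.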
